A study of Mus musculus with 4 samples.

Results

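The genes followed here were 10 genes of cytotoxic and exhausted lymphocytes, taken by symbol from a gene table of 31054 features: Gzmk, Gzma, Gzmb, Prf1, Nkg7, Ccl5, Eomes, Tox, Pdcd1 and Lag3. They were chosen by name and described across CD8 T cells, CD4 T cells, gamma-delta T cells and natural killer (NK) cells, which together made up 1107 of 13878 kept cells from the stromal vascular fraction of gonadal adipose tissue. All cells came from male p16-CreERT2/R26-LSL-tdTomato mice at 18 months of age that had received tamoxifen, so that cells with p16 promoter activity at the time of tamoxifen kept tdTomato (Tom+) and the remaining cells stayed Tom-. The Cre follows p16 and not a cell type, and all 4 groups carry both alleles. Cells were sorted by CD45, the pan-leukocyte antigen, and by tdTomato into 4 groups, first CD45- Tom+, then CD45- Tom-, then CD45+ Tom+ and last CD45+ Tom-, and each group is 1 droplet library of 3′ RNA counted as unique molecular identifiers (UMIs). The number of mice behind a library is not given in the sources used here. With 1 library per group there is no replicate of any group, so that no test was run and no p-value is given. Intervals are exact 95% intervals of counting error, and the spread between animals is not known.

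The libraries kept 1927 to 4391 cells with a median of 18286 to 19525 UMIs. The CD45 label did not separate leukocytes from other cells: T and NK cells were found in all 4 libraries, with more gamma-delta T cells in the library labelled CD45- Tom+ (245) than in the library labelled CD45+ Tom+ (90). Each library is therefore named by its label, and the CD45 labels are given side by side and not read as a property of the cells. The tdTomato transcript followed its label, with 663 to 1346 counts per 1000000 UMIs (CPM) in the lymphocyte classes of the Tom+ libraries and 46.8 to 142 CPM in those of the Tom- libraries. Pairs of libraries shared 26 to 4394 deposited barcodes. Among the kept cells, 76 carried a barcode that was kept in another library as well, and 4 of these lay in the 4 classes.

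Cytotoxic lymphocytes kill target cells by releasing granules that hold perforin, which opens the target membrane, and granzymes, serine proteases that then enter the cell. The T-box factors T-bet and Eomes and the Runx factors are known regulators of granzyme and perforin genes. Under lasting antigen exposure, T cells can enter a state called exhaustion, in which the factor Tox and inhibitory receptors such as PD-1 (encoded by Pdcd1) and Lag3 are raised, and CD8 T cells that carry granzyme K and PD-1 are known to accumulate in aged mice. Adipose tissue holds resident CD8, NK and innate-like gamma-delta T cells, the last known for interleukin-17.

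The lymphocytes were clustered without the 10 genes and then named from markers. The 350 CD8-like cells carried Cd3e at 403 CPM, Trac at 481 CPM and Cd8b1 at 342 CPM. The 218 CD4-like cells carried Cd4 at 369 CPM against Cd8b1 at 17.3 CPM. The 428 gamma-delta T-like cells carried Trdc at 2038 CPM and Il17a at 330 CPM, with Trac at 51.2 CPM. The 111 NK-like cells carried Ncr1 at 365 CPM and Klre1 at 407 CPM, with Cd3e at 7.32 CPM. The defining markers of each class were present. Within the CD8 class, 1 cluster of 138 cells was named naive-like from markers of naive T cells, and the other 212 cells are called non-naive. Every set of 4 values follows the order in which the groups were named above. CD8 cells numbered 73, 93, 40 and 144. CD4 cells numbered 30, 81, 8 and 99, gamma-delta T cells 245, 40, 90 and 53, and NK cells 44, 17, 17 and 33.

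The promoters of the 3 granzymes and of perforin are printed because these 4 genes separated CD8 from NK cells, in opposite directions for Gzmk and the others, and because Eomes, a T-box factor, was measured in the same cells. The 250 bases before each start site (RefSeq, GRCm38.p6) are written 5′ to 3′ on the gene's own strand, and capitals mark a T-box core (AGGTGT or its reverse complement ACACCT) or a Runx core (TGTGGT or its reverse complement ACCACA).
Gzmk promoter: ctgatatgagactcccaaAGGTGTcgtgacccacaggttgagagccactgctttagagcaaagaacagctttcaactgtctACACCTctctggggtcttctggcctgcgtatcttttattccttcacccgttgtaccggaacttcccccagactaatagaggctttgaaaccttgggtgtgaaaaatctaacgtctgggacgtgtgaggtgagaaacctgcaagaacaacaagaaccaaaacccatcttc
Gzma promoter: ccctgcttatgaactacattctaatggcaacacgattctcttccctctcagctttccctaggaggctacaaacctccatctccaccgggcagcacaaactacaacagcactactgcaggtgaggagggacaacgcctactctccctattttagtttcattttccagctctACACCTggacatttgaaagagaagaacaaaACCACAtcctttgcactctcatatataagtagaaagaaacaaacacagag
Gzmb promoter: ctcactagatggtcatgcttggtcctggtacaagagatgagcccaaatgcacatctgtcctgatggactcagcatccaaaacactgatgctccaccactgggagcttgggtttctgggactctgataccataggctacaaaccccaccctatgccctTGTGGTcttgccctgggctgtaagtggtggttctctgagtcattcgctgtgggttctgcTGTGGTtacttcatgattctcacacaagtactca
Prf1 promoter: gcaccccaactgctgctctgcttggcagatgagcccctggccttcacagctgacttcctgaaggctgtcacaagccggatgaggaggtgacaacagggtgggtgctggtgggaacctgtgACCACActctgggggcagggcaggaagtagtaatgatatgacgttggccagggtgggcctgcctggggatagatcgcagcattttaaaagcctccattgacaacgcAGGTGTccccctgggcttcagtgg
The Gzmk window lies at chr13:113180966-113181215 on the minus strand, and holds 2 T-box cores and no Runx core. It lies before the RefSeq start site, which is inside the longer GENCODE span of Gzmk given below, since the 2 annotations begin this gene at different sites. The Gzma window (chr13:113100982-113101231, minus strand) holds 1 core of each kind, as does the Prf1 window (chr10:61297586-61297835, plus strand). The Gzmb window (chr14:56262335-56262584, minus strand) holds 2 Runx cores and no T-box core. Of the 7 genes with an entry, 4 held a T-box core and 4 a Runx core, and the Eomes and Pdcd1 windows held neither. Over 32851 promoters of the same length, 11.8% held the T-box core, 14.05% the Runx core and 2.13% both, and the 2 motifs can overlap by the letters TGT. A match of these letters does not show that a factor binds there. Tox, Ccl5 and Lag3 have no entry. Gzmk and Gzma are neighbours on chromosome 13: Gzma ends at 113100981 and Gzmk, at chr13:113171608-113225908, starts 70626 bases further on, with 3 other genes between.

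Gzmk, which encodes granzyme K, was a gene of the CD8 class. Its level was 203 CPM in the library labelled CD45- Tom+ (95% interval 167 to 245), 169.5 CPM in CD45- Tom-, 193 CPM in CD45+ Tom+ and 204 CPM in CD45+ Tom-, so that the 4 libraries differed by less than their counting error. In CD4 cells it was 0, 133, 0 and 60.8 CPM, and the 2 zeros stand on 30 and 8 cells, where 3 counts would be 17.6 and 65.5 CPM. Gamma-delta T cells held 2 Gzmk UMIs in 428 cells, and NK cells held 2 UMIs, both in 1 of 111 cells. Summed over libraries, CD8 cells carried Gzmk at a log2 ratio of 1.36 over CD4 cells (1.03 to 1.69), and NK cells at −6.32 against CD8 cells (−9.37 to −4.45). The CD8 to CD4 ratio depended on how the 2 classes were divided and ran from 0.53 to 2.70 over 10 alternatives. B-like cells and adipose progenitor cell (APC)-like cells, which should lack Gzmk, held 1.37 and 0.432 CPM, so that the gamma-delta T level of 0.640 CPM lay at background.

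Gzma, which encodes the tryptase granzyme A, was the reverse. NK cells carried 2687, 2232, 2344 and 3492 CPM, and 78.4% of NK cells had a UMI. CD8 cells carried 1.86, 1.68, 4.10 and 4.53 CPM, which is 8 UMIs in 350 cells and close to the 2.92 CPM of B-like cells. Gamma-delta T cells held 1 Gzma UMI, and CD4 cells carried 17.6, 27.4, 0 and 3.58 CPM. The NK to CD8 log2 ratio was 9.78 (8.80 to 10.99), with NK cells higher in 4 of 4 libraries by 9.16 to 10.50. This ratio is large but rests on few CD8 UMIs: it fell to 5.19 when the 10 genes and the gene lists were kept among the clustering genes, where Gzma in the CD8 class of the CD45+ Tom+ library was 664 CPM. An unnamed lymphoid cluster of 113 cells, with both Cd3e (359 CPM) and Klre1 (268 CPM), carried Gzma at 296 CPM and was counted in neither class. Gzmk and Gzma, neighbours in the genome, were thus highest in different classes in each of the 4 libraries.

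Gzmb (chr14:56258838-56262260, mm10) encodes granzyme B, the best-known trigger of target cell death. NK cells carried 361 CPM in CD45- Tom+, 213 CPM in CD45- Tom-, 247 CPM in CD45+ Tom+ and 356 CPM in CD45+ Tom-, and 43.2% of them had a UMI. CD8 cells carried 29.8, 20.1, 20.5 and 16.3 CPM, and 8.29% had a UMI. The NK to CD8 log2 ratio of 3.99 (3.55 to 4.45) held in 4 of 4 libraries. CD4 cells were at 18.1 CPM over all libraries, and the log2 ratio of CD8 over CD4 was 0.18, so that these 2 classes were neighbours that could not be ordered. Gamma-delta T cells held 9 Gzmb UMIs, a level of 2.88 CPM. The unnamed lymphoid cluster carried 272 CPM.

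Prf1 (chr10:61297833-61304680) encodes perforin. NK cells carried 438, 213, 439.5 and 716 CPM, and 85.6% had a UMI. CD8 cells carried 59.6, 80.6, 115 and 85.1 CPM, below the NK cells of the same library in all 4. The log2 ratio of NK over CD8 was 2.60 (2.36 to 2.86). CD4 cells carried 11.5 CPM and gamma-delta T cells 2.88 CPM over all libraries, and the CD8 to CD4 log2 ratio was 2.82 (2.04 to 3.71). Summed over libraries, the order for Prf1 was thus NK, CD8, CD4 and gamma-delta T, the last 2 of which overlapped between libraries, whereas Gzmk put CD8 first and NK cells near the floor.

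Nkg7 (chr7:43437073-43438249), which encodes a granule membrane protein, was high in both killer classes. Its level in NK cells was 1419, 1309, 1639 and 1679 CPM, and in CD8 cells 1134, 968, 1214 and 1131 CPM. The 2 classes did not overlap, but the log2 ratio was only 0.46 (0.36 to 0.56). Compared with non-naive CD8 cells alone, Nkg7 in NK cells was higher in 2 libraries and lower in 2. Ccl5 (chr11:83525778-83530518), the chemokine RANTES, which draws other lymphocytes and monocytes, had the highest CPM of the 10 genes, at 6937, 5832, 6349 and 6570 CPM in CD8 cells. NK cells carried 4916, 5256, 6950 and 7077 CPM, a range that overlapped the CD8 range, and the log2 ratio of NK over CD8 was −0.13. Compared with non-naive CD8 cells alone (9942 CPM over all libraries), Ccl5 in NK cells (5879 CPM) was lower in 4 of 4 libraries, with 4 intervals below 0. CD4 cells carried 87.9 to 1560 CPM of Ccl5 and 87.4 to 336 CPM of Nkg7. Gamma-delta T cells carried 24.3 CPM of Ccl5, below the 49.1 CPM of B-like cells, and 8.64 CPM of Nkg7 against 7.72 CPM in B-like cells, so that by these clusters neither gene lay above background. By the gate on each cell's receptor UMIs, gamma-delta T cells carried Ccl5 at 389.9 CPM in 18.1% of 432 cells and Nkg7 at 75.9 CPM in 9.95%, above the B-like cells, and held 191 Gzma UMIs. The low levels of these 3 genes in gamma-delta T cells therefore depended on the clusters.

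Eomes (chr9:118478212-118486132), the T-box factor of memory CD8 and NK cells, was shared by these 2 classes. CD8 cells carried 344, 317, 361 and 292 CPM and NK cells 249, 507, 394 and 287 CPM, with overlapping ranges and a log2 ratio of −0.02 (−0.23 to 0.18). The CD8 value includes naive-like cells. Against non-naive CD8 cells alone (513 CPM over all libraries), Eomes in NK cells (311 CPM) was lower in 4 of 4 libraries, with 2 intervals below 0. CD4 cells carried 0, 128, 0 and 68.0 CPM, and gamma-delta T cells held 4 UMIs. Tox (chr4:6686353-6991557), a nuclear factor of T cell development and exhaustion, had a different spread. It was 216, 233, 340 and 245 CPM in CD8 cells, and 176, 206, 21.8 and 283 CPM in CD4 cells. The log2 ratio of CD8 over CD4 was 0.09 (−0.11 to 0.30). Non-naive CD8 cells alone carried more Tox than CD4 cells in 4 of 4 libraries, with 4 intervals above 0. These log2 ratios ran from 0.77 to 4.57, the highest resting on 8 CD4 cells. Gamma-delta T cells carried 106, 140.5, 107.5 and 178 CPM, lower than CD8 cells of the same library in all 4, at a log2 ratio of −1.04 (−1.23 to −0.85). NK cells had the lowest Tox of the 4 classes over all libraries, 70.7 CPM, but 223 CPM in the library labelled CD45- Tom-, where 11 of 17 cells had a UMI and no cell held more than 4.

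Pdcd1 (chr1:94038305-94052553), which encodes the inhibitory receptor PD-1, was highest in gamma-delta T cells when libraries were summed. They carried 93.5, 154, 74.8 and 127 CPM, and 41.6% of the cells had a UMI. CD4 cells carried 52.7, 43.5, 87.4 and 57.2 CPM and CD8 cells 26.1, 47.0, 45.1 and 29.0 CPM. The gamma-delta T to CD8 log2 ratio was 1.55 (1.20 to 1.91), with gamma-delta T cells higher in 4 of 4 libraries by 0.73 to 2.14, and it ran from 1.31 to 1.81 over 10 alternatives. The CD8 side of this ratio includes naive-like cells, also in those alternatives. Non-naive CD8 cells alone carried 62.9 CPM, against 100 CPM in gamma-delta T and 52.8 CPM in CD4 cells over all libraries. In the CD45+ Tom+ library non-naive CD8 and gamma-delta T cells stood at 74.3 and 74.8 CPM. Against CD4 cells, non-naive CD8 cells were higher in 2 libraries and lower in 2. The CD4 and gamma-delta T ranges met, since the 8 CD4 cells of the CD45+ Tom+ library lay above their gamma-delta T cells. NK cells held 2 Pdcd1 UMIs. A cluster of 16 cells with markers of innate lymphoid cells of type 2 (ILC2) carried Pdcd1 at 175 CPM, in 10 of 16 cells. Lag3 (chr6:124904361-124911705), an inhibitory receptor for MHC class II, was at 27.9, 26.9, 16.4 and 12.7 CPM in CD8 cells. CD4 cells carried 58.6, 68.6, 0 and 60.8 CPM, and the log2 ratio of CD8 over CD4 was −1.63 (−2.18 to −1.09). NK cells held 6 Lag3 UMIs and gamma-delta T cells 9.

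**Figure D1:**
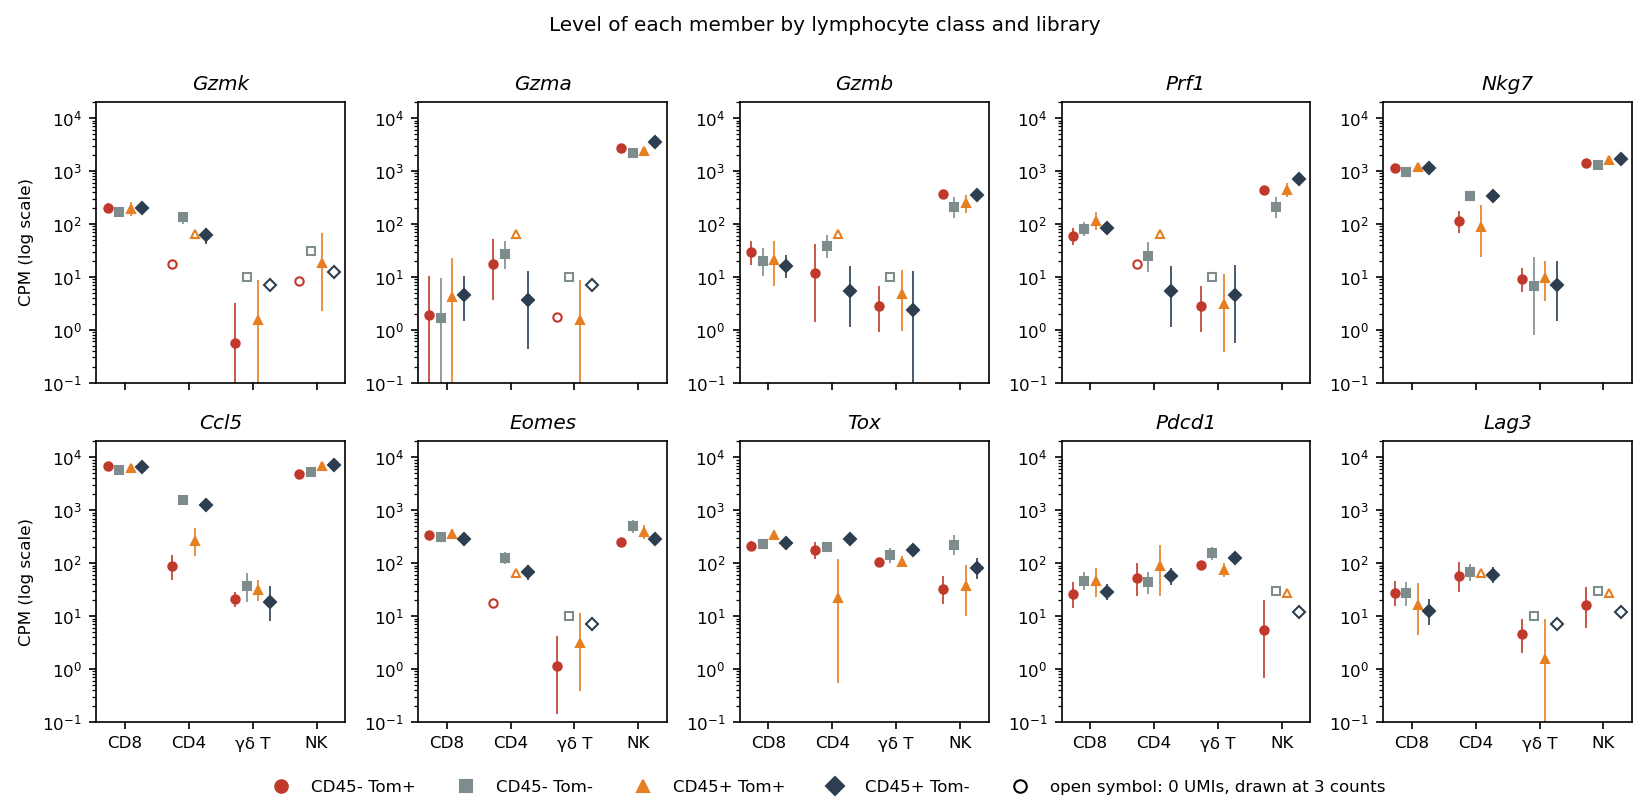
Level of each of the 10 genes (CPM, logarithmic axis) in CD8, CD4, gamma-delta T and NK cells, 1 point per library with its exact 95% counting interval and open symbols for 0 UMIs drawn at 3 counts. Gzmk stands between 169.5 and 204 CPM in CD8 cells, while Gzma stands between 2232 and 3492 CPM in NK cells.

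A gene was taken as measured in a comparison when both sides had at least 5 CPM, and as past the fold when the sides differed at least 2-fold. Between CD8 and CD4 cells, 9 of the 10 genes were measured. Gzmk, Prf1, Nkg7, Ccl5 and Eomes were past the fold with CD8 higher, against 1.62% of the 8386 genes measured. Lag3 was past it with CD8 lower, against 5.81% of all genes. The median log2 ratio of the 9 was 1.36, beside −0.18 over all genes. Between NK and CD8 cells 7 were measured. Gzmb and Prf1 were past the fold with NK higher (6.11% of 7982 genes), and Tox and Lag3 with NK lower (4.01% of them). Gzmk, Gzma and Pdcd1 dropped out of this count because 1 side was under 5 CPM.

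The non-naive CD8 cells held nearly all the Gzmk of the class. Gzmk was 308, 356, 318 and 444 CPM in non-naive cells and 15.6, 9.36, 0 and 13.0 CPM in naive-like cells, with no overlap. A Gzmk UMI was seen in 79.7% of non-naive and 7.25% of naive-like cells. With each cell thinned to 2000 UMIs, which puts all cells at 1 depth, the shares were 52.2% and 3.65%, beside 0.515% of B-like and 0.0835% of APC-like cells. The median depth in these groups ranged from 5113 UMIs in non-naive cells of 1 library to 10794.5 in naive-like cells of another, and in B-like cells from 5287 to 6558.

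The other genes followed the same direction to different extents. Pdcd1 was 40.7, 90.8, 74.3 and 59.3 CPM in non-naive cells, against 4.90 CPM over all naive-like cells. Tox was 308, 418, 520 and 483 CPM against 51.8, 74.9, 62.6 and 56.9 CPM. These 2 genes of exhaustion had log2 ratios of 3.68 and 2.80, above those of Eomes (2.16), Ccl5 (1.79), Nkg7 (1.37) and Prf1 (1.21). Gzmk had the highest, 5.03 (4.27 to 5.91). Naive-like cells still carried Ccl5 at 2044 to 3307 CPM and Nkg7 at 427.5 to 731 CPM in every library, above the 49.1 and 7.72 CPM of B-like cells. In each of the 4 libraries, 9 of the 10 genes were higher in non-naive cells, Gzma being the exception. The same count over all genes was not made by library. Some of these comparisons were against 0 UMIs: both sides had UMIs in 2 libraries for Pdcd1 and in 3 for Gzmk and Lag3. For Gzmb the interval lay above 0 in 1 of 4 libraries, and for Prf1 in 2. The 8 of 10 genes measured on both sides were at least 2-fold higher, against 6.16% of 7965 genes higher and 2.94% lower. The clusters were made from the same cells, so that this is a description of them.

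**Figure D2:**
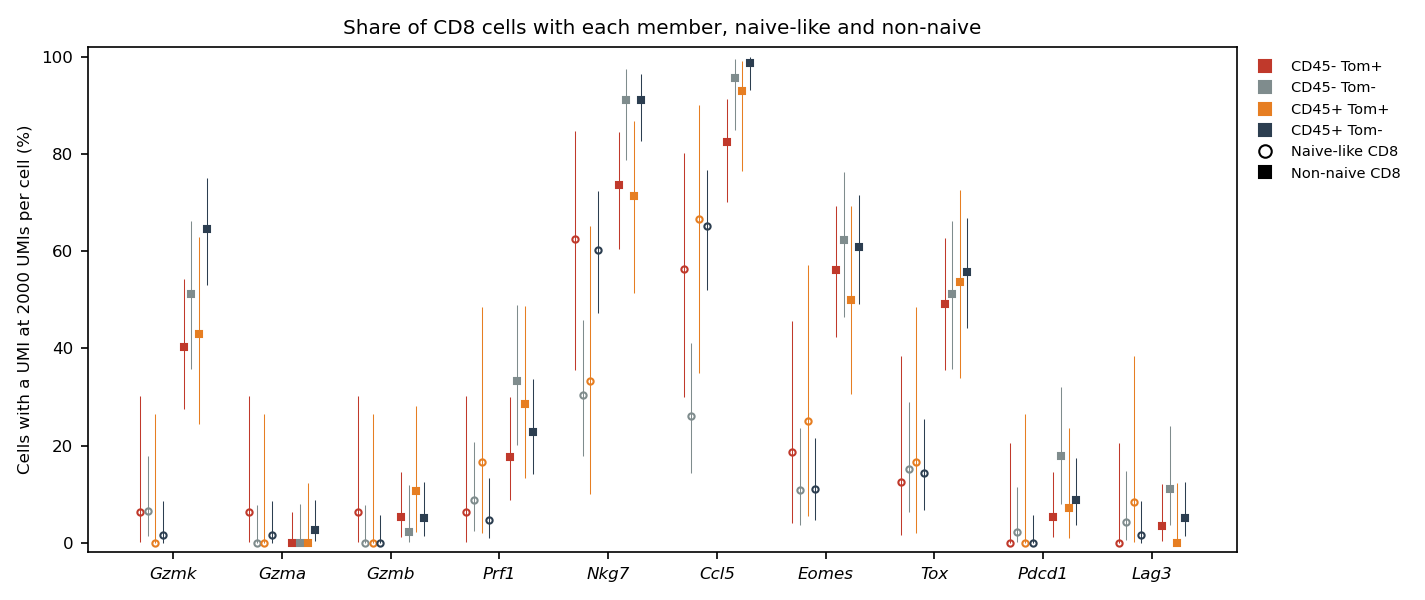
Share of naive-like (open circles) and non-naive (filled squares) CD8 cells with a UMI of each gene at 2000 UMIs per cell, by library, with exact binomial 95% intervals. Gzmk was seen in 40.4 to 64.6% of non-naive cells of a library, and Gzma in few cells of either group.

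Non-naive CD8 cells with and without Gzmk were compared for the other genes. At 2000 UMIs per cell, Gzmk was seen in 109 cells and not in 100. Eomes was seen in 65.1% of the cells with Gzmk (55.4 to 74.0) and in 51% of those without (40.8 to 61.1). Ccl5 was seen in 99.1% and 86%, and Nkg7 in 89.0% and 78%. Tox was seen in 56.0% and 49%, and Pdcd1 in 11.9% (6.51 to 19.5) and 7% (2.86 to 13.9). Except for Ccl5 the intervals of these shares overlapped. By library, Tox was seen less often with Gzmk in CD45- Tom- (43.5% against 59.1%) and CD45+ Tom- (54.9% against 57.1%), and Pdcd1 less often in CD45- Tom- (13.0% against 22.7%). Prf1 was seen in 24.8% and 24%, and Lag3 in 4.59% and 6%. Gzmb was rare in both, at 7.34% and 3%, and 8 of the 11 cells with Gzmb also had Gzmk. Gzma was too rare to compare, with 6 UMIs in the 212 non-naive cells at full depth, and was seen in none of the 109 cells with Gzmk. In NK cells at the same depth the pattern was one of Gzma with Gzmb: 44% of the 75 cells with Gzma had Gzmb (32.5 to 55.9), against 5.71% of the 35 without (0.700 to 19.2).

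Whether Gzmk was seen in CD4 cells of the Tom+ libraries depended on how CD4 cells were told from CD8 cells. By the clusters used here, 43 of 180 CD4 cells of the Tom- libraries had a Gzmk UMI (23.9%, 17.9 to 30.8) and 0 of 38 of the Tom+ libraries had one (exact upper limit 9.25% of cells with a UMI). By a gate on each cell's own Cd4, Cd8a and Cd8b1 UMIs, 9 of 45 Tom+ cells (20%, 9.58 to 34.6) and 52 of 170 Tom- cells (30.6%, 23.8 to 38.1) had one. Gated CD4 cells carried Gzmk at 76.7, 131, 60.7 and 124 CPM, and gated CD8 cells at 147, 203, 187 and 154 CPM. Clustering again with doublets kept, with the members among the clustering genes or without shared barcodes gave 9.30 to 11.5% of Tom+ CD4 cells with Gzmk. A lack of Gzmk in Tom+ CD4 cells was thus seen in some divisions of the cells and not in others. Of the 212 cells in the non-naive CD8 cluster, 139 had a UMI of a CD8 chain alone, 30 (14.2%) of Cd4 alone, 1 of both and 42 of neither. Gzmk was seen in 26 of the 30 cells with Cd4 alone, and 10 of these 26 came from Tom+ libraries.

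**Figure D3:**
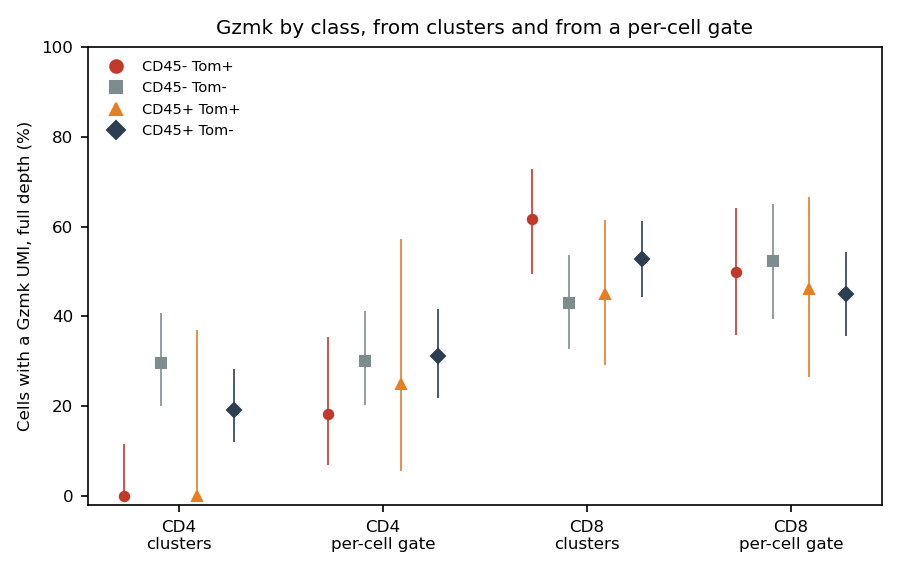
Share of CD4 and CD8 cells with a Gzmk UMI in each library, with cells assigned by cluster or by a gate on their own Cd4, Cd8a and Cd8b1 UMIs, with exact binomial 95% intervals. The summed share in CD4 cells of the Tom+ libraries is 0% by these clusters and 20% by the gate.

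The 43 clustered CD4 cells with Gzmk carried other genes of the set. Eomes was seen in 53.5% of them and in 4.38% of the 137 Tom- CD4 cells without Gzmk. Ccl5 was seen in 88.4% and 42.3%. A UMI of Cd4 itself was seen in 37 of the 43, and Foxp3, the regulatory T cell factor, in 0. Cluster 10, the cluster of 41 CD4 cells with Foxp3, held 0 Gzmk and 0 Eomes UMIs against 92 and 94 in the other 177 CD4 cells. It had less Ccl5 (227 against 1422 CPM) and less Nkg7 (53.8 against 360 CPM). It had more Pdcd1 (96.0 against 40.9 CPM, log2 ratio 1.23, 0.44 to 1.99) and more Gzmb (46.1 against 10.5 CPM, log2 ratio 2.13, 0.80 to 3.50), though 75% of its Gzmb UMIs lay in 1 cell. Tox was at 234 and 229 CPM in the 2 groups.

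Gzmk overlaps Esm1, a gene of endothelial cells on the opposite strand, and the 2 readings moved together. Esm1 was at 133 CPM in non-naive CD8 cells, 56.1 CPM in CD4 cells and 3.27 CPM in naive-like CD8 cells, with 0 UMIs in gamma-delta T and NK cells. Endothelial-like cells carried 18.6 CPM. Esm1 was seen in 32.0% of the 169 non-naive CD8 cells with Gzmk and in 9.30% of the 43 without. In CD4 cells it was seen in 46.5% of cells with Gzmk and in 5.14% of those without. In the CD4 cells of the library labelled CD45- Tom+, which held 0 Gzmk UMIs, 5 cells held 16 Esm1 UMIs. How reads over both genes were assigned is not given in the sources used here, and the Gzmk values are uncertain to that extent. Eomes and Tox each overlap a predicted gene on the opposite strand, Gm33460 and Gm11802.

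The design compares Tom+ with Tom- cells, that is, cells with and without p16 promoter activity at tamoxifen. In CD8 cells none of the 9 genes measured reached a 2-fold difference in either pair of libraries. In the libraries labelled CD45-, 4.88% of 8164 genes were at least 2-fold higher in Tom+ cells and 6.27% lower, and in the libraries labelled CD45+, 5.69% of 7436 genes were higher and 6.55% lower. For Gzmk the log2 ratio was 0.26 (−0.14 to 0.66) in the CD45- pair and −0.08 (−0.57 to 0.38) in the CD45+ pair. Pdcd1 had −0.85 (−1.89 to 0.12) and 0.64, of opposite sign. Ccl5 was higher in Tom+ cells of the CD45- pair by 0.25 (0.18 to 0.32) and not in the CD45+ pair (−0.05). Tox was −0.11 in the CD45- pair and 0.47 (0.10 to 0.83) in the CD45+ pair. Over all CD8 cells, no gene had an interval that left out 0 in the same direction in both pairs.

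The share of naive-like cells among CD8 cells was lower in the Tom+ library of each pair. It was 21.9% (13.1 to 33.1) in CD45- Tom+ and 50.5% (40.0 to 61.1) in CD45- Tom-, and 30% (16.6 to 46.5) and 43.8% (35.5 to 52.3) in the CD45+ Tom+ and Tom- libraries, where the intervals overlap. Within non-naive CD8 cells the median log2 ratio of all genes was −0.17 in the CD45- pair and −0.08 in the CD45+ pair. Gzmk was lower in Tom+ cells, by −0.21 (−0.62 to 0.20) in the CD45- pair and −0.48 (−0.97 to −0.02) in the CD45+ pair. Summed over CD45 labels it was −0.41 (−0.70 to −0.12), which is 153 UMIs in 85 cells against 315 in 127. Prf1 was lower in the CD45- pair, −0.94 (−1.71 to −0.20), and not in the CD45+ pair, 0.24. Pdcd1 was lower in the CD45- pair, −1.16 (−2.22 to −0.16), on 14 and 25 UMIs, and 0.32 in the CD45+ pair. It was the 1 of 9 genes measured in the CD45- pair that was at least 2-fold lower, and 0 were higher. Of all 7697 genes in that pair, 919 were lower and 401 higher. In the CD45+ pair 0 of 10 genes were past 2-fold, beside 939 lower and 649 higher of 7650. Ccl5 was −0.19 (−0.26 to −0.12) and −0.28 (−0.37 to −0.20) in the 2 pairs, so that its interval lay below 0 in both. Nkg7 (−0.23, −0.42 to −0.04), Eomes (−0.41, −0.74 to −0.07) and Tox (−0.44, −0.83 to −0.05) were lower in the CD45- pair. In the CD45+ pair their ratios were −0.07, −0.16 and 0.11, with intervals that included 0. How many of all genes had such intervals was not counted. In the CD45- pair Gzmk and Ccl5 lay close to the median of all genes. In the CD45+ pair both lay below that median of −0.08, which the Gzmk interval included and the Ccl5 interval did not. The part of the naive-like share in the values of the whole class was not tested.

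**Figure D4:**
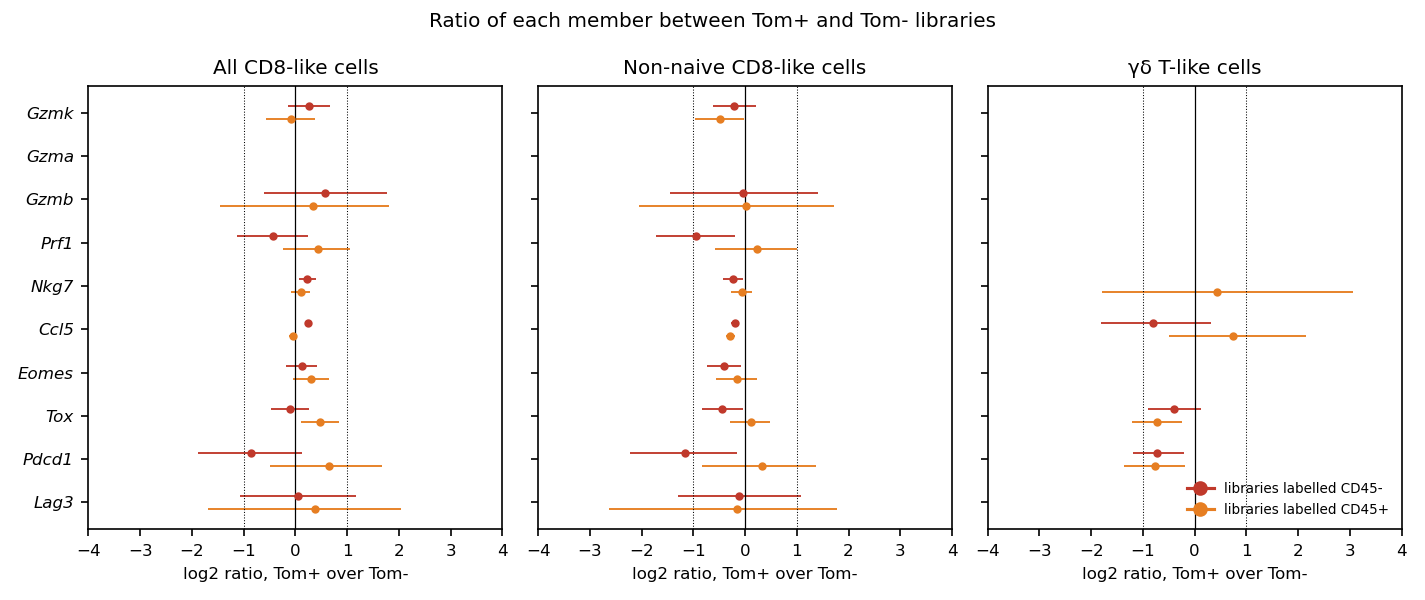
Log2 ratio of Tom+ over Tom- for each gene measured in all CD8-like, non-naive CD8-like and gamma-delta T-like cells, for each pair of libraries, with exact 95% counting intervals and dotted lines at a 2-fold difference. Most intervals of the CD8 class include 0, and Pdcd1 in gamma-delta T cells lies below 0 in both pairs.

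In gamma-delta T cells, where 4 genes were measured, Pdcd1 and Tox were lower in Tom+ cells. Pdcd1 was lower by −0.72 (−1.20 to −0.21) in the CD45- pair and −0.77 (−1.36 to −0.18) in the CD45+ pair. Tox was −0.41 (−0.89 to 0.11) and −0.73 (−1.22 to −0.24). Neither reached 2-fold, which 11.8% of 8030 genes did in the CD45- pair and 11.2% of 7754 in the CD45+ pair, in either direction. The Tom+ and Tom- cells of this class lay mostly in different clusters: clusters 2, 6 and 9 were mostly Tom+ and cluster 7 mostly Tom-. In all 14 alternatives both genes kept this direction in both pairs.

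In CD4 cells the libraries labelled CD45- held at least 20 cells on both sides. Of 7 genes measured, Ccl5 (−4.15, −5.00 to −3.42), Nkg7 (−1.59, −2.36 to −0.89) and Gzmb (−1.73, −4.89 to 0.34, on 2 and 17 UMIs) were at least 2-fold lower in Tom+ cells, where 20.4% of 7999 genes were past 2-fold in either direction. The Ccl5 and Nkg7 ratios were 1.42 and 0.36 with looser filters on cells, and Ccl5 was 0.41 by the gate, so that their direction depended on which cells were called CD4. Pdcd1 (0.28), Tox (−0.23) and Lag3 (−0.23) differed less. In NK cells 1 library of each pair held fewer than 20 cells, and values alone are given. Gzma was 0.27 in the CD45- pair and −0.58 in the CD45+ pair, Prf1 was 1.04 and −0.70, and Tox was −2.76 and −1.14. Only Tox kept its sign among these 3, on 4 to 22 UMIs in a library. Ccl5 kept its sign as well (−0.10 and −0.03). Gzmb (0.76 and −0.53), Eomes (−1.03 and 0.45) and Nkg7 (0.12 and −0.04) did not.

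Markers of other cells moved with the Tom label. Immunoglobulin genes took 5.32 to 11.7% of the UMIs of a class in Tom+ libraries and 0.297 to 0.555% in Tom- libraries. The summed plasma cell markers were 3515 to 8016 CPM against 223 to 425 CPM, and all 5 had UMIs in every class. The summed APC markers went the other way, at 65.5 to 135 CPM against 351 to 759 CPM. The summed stress genes, which rise during tissue dissociation, were 8896 to 13323 CPM against 7326 to 11994 CPM, but lower in Tom+ NK cells of the CD45- pair (11261 against 11994 CPM) and near equal in CD4 cells of that pair (11170.0 against 11133 CPM). The part of these in the Tom ratios was not tested, except that with totals taken without immunoglobulin genes 36 of 37 ratios stayed within their interval.

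Wider gene lists put the 10 genes in context. Of all 8386 genes measured between CD8 and CD4 cells, 1.62% were at least 2-fold higher in CD8 cells and 5.81% lower. Of 25 measured genes of a cytotoxic granule and effector list, 7 were at least 2-fold higher in CD8 than in CD4 cells and 2 lower. Ctsw, the granule protease cathepsin W, was at 160 and 38.8 CPM. The log2 ratios of Ccl4, Cst7 and Ccl3 were 0.98, 0.81 and 0.80, and those of Srgn and Tbx21, which encodes T-bet, were −1.01 and −0.89. Of 26 measured genes of an inhibitory receptor and exhaustion list, 1 was higher in CD8 cells and 11 lower, with Ikzf2 (55.2 against 422 CPM) and Ctla4 (210 against 740 CPM) among those lower. Both genes are known from regulatory T cells, and the Foxp3 cluster carried them at 1348 and 1452 CPM. Of 9 naive genes 4 were higher in CD8 cells and 0 lower, of 8 tissue residency genes 0 were higher and 6 lower, and of 10 stress genes none was past 2-fold. The CD8 class here includes naive-like cells, and these counts were not made for non-naive cells alone. In all CD8, non-naive CD8 and CD4 cells, Casp4 was at 34.7, 57.3 and 111 CPM and Rgs1 at 222, 312 and 490 CPM. Both were thus past 2-fold only with naive-like cells included. Ikzf2 and Ctla4 stayed past it, at 72.4 and 294 CPM in non-naive cells. Of 25 cytotoxic genes, 13 were higher in NK than in CD8 cells and 1 lower, beside 6.11% and 4.01% of all genes. Of 20 exhaustion genes, 10 were higher in non-naive than in naive-like CD8 cells and 0 lower, beside 6.16% and 2.94% of all genes.

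The lists were also compared by Tom label, where the shares of all genes past 2-fold were those given above (4.88% and 6.27% in the CD45- pair, 5.69% and 6.55% in the CD45+ pair). In CD8 cells of the CD45- libraries 4 of 25 cytotoxic genes were higher in Tom+ cells and 0 lower, and in the CD45+ libraries 1 of 23 was higher and 6 lower. Klrk1, which encodes the receptor NKG2D, was 1.04 and −1.33 in the 2 pairs, and Ccl3 was 1.67 and 0.72. Of the exhaustion list 3 of 24 and 3 of 23 were higher and 0 lower. Rgs16 was 1.50 and 0.96, and Irf4, a factor induced by T cell receptor signals, was 1.32 and 1.18. Of the naive list, which shares genes with the markers that named the naive-like cluster, 3 of 10 were lower and 1 higher in the CD45- pair and 2 of 9 lower and 0 higher in the CD45+ pair, with medians of −0.69 and −0.45 and Bach2 at −1.24 and −0.45. Of 10 stress genes, 1 was higher in each pair, with Atf3, an immediate early factor, at 1.28 and 1.71.

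The genes most like 4 of the set over the 13 sums of a class in a library with at least 20 cells are given as a description. These sums share libraries and classes. Gzmk was most like Epha3 (Pearson r of 0.97), Gtf2i (0.96) and Dpp4 (0.95), Gzma most like Klra3 (0.95), Fcer1g (0.94) and Irf8 (0.94). Gzmb was most like Bcl2l11 (0.96), Ccl3 (0.94) and Olfm1 (0.93), and Pdcd1 most like Cd3g (0.97), Vsir (0.96) and Fam213a (0.96). Within the set, Gzmk had an r of 0.72 with Tox, 0.69 with Eomes, 0.09 with Pdcd1 and −0.25 with Gzma.

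The 4 classes did not hold all UMIs of the 10 genes in this tissue. They held 75.5% of the Gzma UMIs of all kept cells, with 74.6% in NK cells alone, but 5.37% of the Lag3 UMIs. CD8 cells held 56.4% of Gzmk, 43.8% of Eomes, 39.8% of Ccl5 and 37.8% of Nkg7. An unnamed cluster of 271 cells, led by Lyz2, C1qb and Ccl5, held 16.7%, 16.3%, 12.4% and 11.2% of these 4 genes. It lay outside the 4 classes and carried macrophage markers at 9336 to 13731 CPM with Cd3e at 51.8 to 100 CPM. Whether its barcodes were mixtures of cells was not tested. NK cells held 40.4% of Prf1, and gamma-delta T cells 39.4% of Pdcd1. CD8 cells held 2.31% of Gzmb and NK cells 12.2%, since 64.2% lay in 1 cluster outside the lymphocytes. That cluster of 598 cells was led by Cma1, Mcpt4, Tpsb2 and Cpa3, which are mast cell proteases, and carried Gzmb at 320, 366, 325 and 370 CPM, in the range of NK cells. Lag3 lay in APC-like cells (27.0%) and in a cluster led by immunoglobulin genes (33.7%). Of Tox, 25.3% lay in CD8, 15.6% in gamma-delta T, 11.6% in CD4 and 18.5% in APC-like cells, where the level was 5.18 CPM.

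**Figure D5:**
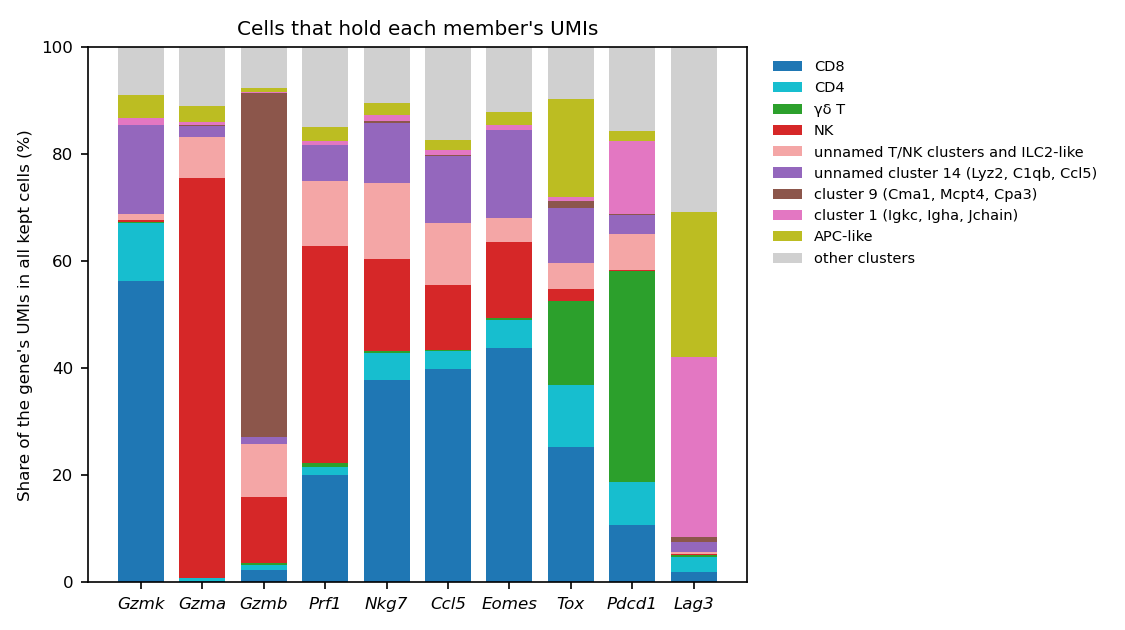
Share of each gene's UMIs over all kept cells that lay in CD8, CD4, gamma-delta T, NK and other cells. The Gzma bar is filled mostly by NK cells (74.6%), and the Lag3 bar almost wholly by cells outside the 4 classes.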

How the data were processed

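Single-cell suspensions of the stromal vascular fraction were sorted by FACS, and 4 libraries were made with a droplet 3′ kit and sequenced on a DNBSEQ-G400RS. The authors counted UMIs with Cell Ranger 3.0.2 on mm10 and deposited raw UMI counts per gene and barcode, with 64083756 to 139397501 UMIs per library. Barcodes with more than 1000 and fewer than 7000 genes and under 8% mitochondrial UMIs were kept, as in the study, and doublets were removed with Scrublet at 0.8% per 1000 barcodes (54 to 427 per library). The kept cells were clustered with scanpy 1.11.5 and leidenalg 0.10.2 (2000 variable genes, 30 components, 15 neighbours, resolution 1), and lymphocytes were clustered again with 20 components. The 10 genes, the cytotoxic list, the exhaustion list, tdTomato and mitochondrial genes were left out of the clustering genes. Genes found only in the naive, tissue residency or stress lists were not left out, so that they could shape the clusters. Clusters were named from markers with thresholds set after seeing the data, so that every class is rebuilt and its name stands for a likeness. The 10 genes and the gene lists were chosen with earlier results of these data known. UMIs were summed per class and library as counts per 1000000 UMIs of the class (CPM) with exact Poisson intervals, shares of cells carry exact Clopper-Pearson intervals, and ratios of sums carry conditional exact intervals. All cover counting error only. For shares, cells were also thinned to 2000 UMIs, leaving out shallower cells. A count of 0 was read against 3 counts. The study tested single cells with a Wilcoxon test, which was not used because cells of 1 library are not replicates. Ratios of Tom+ over Tom- were taken where both libraries held 20 or more cells of a class, and genes of at least 5 CPM on both sides entered the counts past 2-fold. Named genes were the 10 genes, up to 4 genes of each list with the highest and the lowest ratio at 20 CPM or more, the 3 genes most like each of 4 members, and markers. Gene positions came from GENCODE on GRCm38, the mm10 assembly, and promoters from RefSeq. Scripts were tested on simulated data. The alternatives tried were looser filters, doublets kept, other resolutions (0.5 and 2), a gate on each cell's own receptor UMIs, 4000 variable genes, members kept among the clustering genes, shared barcodes left out, equal weights for cells, thinning and leaving out the cell with the most UMIs. Leaving out kept barcodes kept in another library, totals without immunoglobulin genes and sums over CD45 labels were added after seeing the data.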

Additional observations from a re-analysis of the deposited data

Results flagged for a closer look

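Gzmb and Lag3 had more of their UMIs in 1 cluster outside the 4 lymphocyte classes than in the 4 classes together. Of all Gzmb UMIs in kept cells, 64.2% lay in a cluster of 598 cells led by the mast cell proteases Cma1, Mcpt4, Tpsb2 and Cpa3, where 204 cells (34.1%) had a Gzmb UMI and the level was 328 CPM. By library the level was 320, 366, 325 and 370 CPM, in the order CD45- Tom+, then CD45- Tom-, then CD45+ Tom+ and last CD45+ Tom-. Of all Lag3 UMIs, 33.7% lay in a cluster of 1352 cells led by Ighv11-2, Igkc, Igha and Jchain, at 17.2 CPM. Lag3 in that cluster was at 17.7 and 19.0 CPM in the Tom+ libraries and at 4.30 and 6.41 CPM in the Tom- libraries.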

How the results depend on the processing

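No paired analysis was possible because each group is 1 library. The Gzmk log2 ratio of CD8 over CD4 cells was 2.70 with looser filters on cells, 1.01 and 2.38 at resolutions 2 and 0.5, 0.53 by the gate, and 0.95 and 0.92 without shared deposited or kept barcodes. The Gzma ratio of NK over CD8 cells was 8.31 at resolution 0.5, 8.27 by the gate, 7.18 with 4000 variable genes, 5.19 with the members kept among the clustering genes, and 6.22 and 6.12 without shared barcodes. The share of Tom+ CD4 cells with Gzmk was 11.5% (6 of 52) with doublets kept, 20% by the gate, 10% (5 of 50) with the members kept, and 9.30% and 10.9% without shared barcodes. In Tom- CD4 cells it was 5.74% (12 of 209) with looser filters and 13.1% (19 of 145) at resolution 0.5. In the CD45- pair of CD8 cells the members past 2-fold, 0 as reported, were 1 with looser filters, with doublets kept and with cells weighted equally, 2 with the members kept, and 3 without shared barcodes (either form) and at 2000 UMIs. In the CD45+ pair they were 1 with the members kept, without shared barcodes (either form), at 2000 UMIs and without the cell with the most UMIs. In the CD45- pair the Pdcd1 log2 ratio ran from −1.56 to −0.14 over 14 alternatives, and that of Gzmb from −0.79 to 2.64. Reversed ratios were those of Nkg7 (0.36) and Ccl5 (1.42) in CD4 cells with looser filters, Ccl5 in CD4 cells by the gate (0.41) and Nkg7 in CD8 cells by the gate (−0.0025). The Pdcd1 ratio of gamma-delta T over CD8 cells, from 1.31 to 1.81, and the 5 to 7 members higher in CD8 than in CD4 cells stayed within their limits in 10 of 10 alternatives. Both results keep naive-like cells in the CD8 class. Of 506 single Tom ratios, 449 stayed within their interval, 53 moved and 4 reversed. Leaving out the 76 kept cells with a shared barcode meant clustering again, which changed which cells were called CD8, CD4 or NK, and why these values moved was not tested. Values that rest on which cells are called CD8 or CD4 are the least certain here, and fewer than 20 cells stand behind the Tom+ CD4 cells of the CD45+ library and 1 NK library of each pair.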
